A study of Mus musculus with 3 samples.

Results

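The Wnt ligands are a family of secreted, lipid-modified glycoproteins, and 10 of them, Wnt2, Wnt4, Wnt5a, Wnt5b, Wnt6, Wnt7a, Wnt7b, Wnt10a, Wnt11 and Wnt16, were followed here among the 31053 genes of the count matrices. The members were taken by gene name, with earlier results of these data known when they were chosen. Cells came from the iridocorneal angle and limbus of 6-week-old mice, the ring of tissue where aqueous humour leaves the eye, and were sequenced in 3 droplet libraries. The 2 control libraries came from Angpt1 flox/flox mice, in which the Angpt1 gene is flanked by recombination sites but intact. The 1 Angpt1ΔNC library came from Angpt1 flox/flox;Wnt1Cre+ mice, in which a Cre recombinase driven by the Wnt1 promoter deletes Angpt1 in the neural crest and the cells derived from it. Mice of both genotypes came from crosses over 2 generations to albino ICR animals, their strain is given as mixed, and each library pooled the eyes of 2 to 3 animals. With a single Angpt1ΔNC pool, a difference between genotypes cannot be told apart from a difference between that pool and the others.

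A cell that makes a Wnt protein first attaches a lipid to it with the enzyme Porcn and carries it to the surface with the protein Wls. On a receiving cell, Wnt proteins bind Frizzled receptors together with the co-receptors Lrp5 and Lrp6, and the signal then stabilises beta-catenin, which switches on target genes with the TCF/LEF factors. Several ligands, among them Wnt5a, Wnt5b, Wnt4 and Wnt11, often act instead through Frizzled, Ror and Ryk receptors on cell shape and polarity. In the front of the eye, Wnt signals are known for their part in the limbal stem cells that renew the corneal epithelium, in the margin of the ciliary body and iris, and in the trabecular meshwork (TM), the filter that leads to Schlemm's canal.

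A unique molecular identifier (UMI) marks 1 captured RNA molecule, so that counts were not divided by gene length. A level is the number of UMIs of a gene per 1,000,000 UMIs of the cells of a label, written CPM from here on, and a series of 3 values is in the order control 1, control 2, Angpt1ΔNC. The labels are the clusters of the deposited annotation, 35 in all, of which TM1 to TM11 are the TM, stromal and corneal endothelial cells that the study clustered again and SC, LEC and EC2 to EC4 its endothelial cells. Kept cells numbered 9076, 10160 and 6772, with 76981606, 80346829 and 66484181 UMIs and medians of 6329.5, 6393.5 and 7444 UMIs per cell. Angpt1 was at 37.8, 39.3 and 0.391 CPM, which follows the genotype labels. The pools did not hold the sexes in like shares. Xist, which is transcribed in female cells, was at 0.0390, 0.0249 and 652 CPM, nearly absent from the controls. The study reports that male and female animals were pooled. By a Y-linked UMI and no Xist, 69.7%, 72.1% and 29.4% of the cells were typed as male. Control cells not typed as male nearly all lack Xist as well, so they cannot be counted as female. Sex make-up thus runs with genotype here, and sex and genotype cannot be told apart over all cells. Between 13 and 25 cell barcodes were shared by any pair of libraries, and 1 barcode of each pair carried the same label. Since each library is a pool of animals, p-values measure the spread between these pools only.

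The deposited names were checked against lists of marker genes. The leading list was that of surface epithelium in label 4, corneal epithelium in 5, conjunctival epithelium in 3, dividing cells in 2, ciliary epithelium in 7, smooth muscle in 19, dendritic cells in 23 and macrophages in 24. TM1 was led by fibroblast and keratocyte markers, TM2 and TM3 by those of the corneal endothelium, TM4 and TM7 by those of the TM, and TM10 by those of fibroblasts, with Cd34 at 974, 809 and 842 CPM. TM5, which the study places in the TM, was led by the fibroblast list here. No list stood out in label 17, where ciliary epithelium led with 2.36 times its level in the other labels. In label 18 the fibroblast list led at 2.66 times and the endothelial list followed at 2.64 times their level elsewhere. The latter rested almost wholly on Cldn5 (318, 195 and 667 CPM), with Cdh5, Pecam1 and Kdr at 6.17 or less. Labels 17 and 18 are therefore called by number. In label 9, which the study names melanocytes, Schwann cell markers led at 6.87 times and melanocyte markers followed at 6.38 times their level elsewhere. Label 8, also named melanocytes, was led by melanocyte markers at 21.3 times, with Schwann cell markers second at 13.4 times. The Schwann cell list thus does not set label 9 apart from label 8.

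Each ligand was placed on the mouse genome GRCm38. Wnt6 lies on chromosome 1 from 74771892 to 74785322 and Wnt10a on the same strand from 74791516 to 74804179, so that 6193 bases separate them. Wnt11 lies on chromosome 7 from 98835112 to 98855195 (plus strand), Wnt2 on chromosome 6 from 17988940 to 18030585 (minus strand), Wnt4 on chromosome 4 from 137277489 to 137299726 (plus), Wnt5a on chromosome 14 from 28504750 to 28527448 (plus) and Wnt5b on chromosome 6 from 119432531 to 119544347 (minus). Wnt16 lies on chromosome 6 from 22288227 to 22298522 (plus), Wnt7a on chromosome 6 from 91363981 to 91411363 (minus) and Wnt7b on chromosome 15 from 85535437 to 85582473 (minus). All are protein-coding.

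Promoter windows of RefSeq, 250 bases before to 50 after a start on build GRCm38.p6, were held for 7 of the 10 members, with 10 windows in all, and none was held for Wnt5a, Wnt7b and Wnt10a. Those of Wnt11 and Wnt2 are shown because these genes carried the genotype differences with the most calls and with the smallest adjusted p, in opposite directions. Capitals mark TATAAA and the TCF/LEF motif CTTTGAT (or ATCAAAG on the other strand); the related CTTTGAA was searched as well. The Wnt11 window is chr7:98834862-98835161 (plus strand) and the Wnt2 window is chr6:18030396-18030695 (minus strand).
Wnt11: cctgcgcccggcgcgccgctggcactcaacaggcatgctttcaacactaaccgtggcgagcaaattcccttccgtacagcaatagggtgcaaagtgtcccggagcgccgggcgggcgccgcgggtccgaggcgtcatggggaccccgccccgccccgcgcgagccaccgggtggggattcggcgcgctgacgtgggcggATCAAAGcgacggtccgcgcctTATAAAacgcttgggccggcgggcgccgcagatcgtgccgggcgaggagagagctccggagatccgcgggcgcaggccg
Wnt2: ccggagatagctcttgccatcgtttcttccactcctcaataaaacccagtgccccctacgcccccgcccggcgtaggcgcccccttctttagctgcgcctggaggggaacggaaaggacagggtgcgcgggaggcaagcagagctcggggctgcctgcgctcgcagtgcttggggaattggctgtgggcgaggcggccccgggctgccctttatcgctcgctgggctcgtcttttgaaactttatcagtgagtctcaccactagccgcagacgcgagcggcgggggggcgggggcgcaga
In the Wnt11 window TATAAA begins 29 bases and the TCF/LEF match 51 bases before the start. The Wnt2 window and the other Wnt11 window held no match, and among the remaining members only the Wnt5b window chr6:119449337-119449636 (minus strand) held CTTTGAT, 71 bases before its start. Of 32851 windows of this length, 13.6% held TATAAA on either strand, 3.73% CTTTGAT, 5.14% CTTTGAA and 8.65% either TCF/LEF form. The counts do not tell which start was used in these cells.

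The ligands differed in how many labels held them. Wnt11 reached 10 CPM in both controls in 20 of 35 labels, Wnt4 in 15, Wnt5a in 14, Wnt5b in 10, Wnt10a in 7, Wnt6 in 5, Wnt7b in 4, Wnt2 in 2 and Wnt16 in 1. Wnt7a had no UMI in any kept cell, which allows up to 0.0390, 0.0373 and 0.0451 CPM by a limit of 3 counts. Over whole libraries Wnt11 was at 64.1, 61.0 and 36.9 CPM, Wnt4 at 63.8, 45.1 and 65.7, Wnt10a at 27.6, 22.7 and 30.6 and Wnt2 at 6.38, 3.2 and 12.3. Whole-library values mix the level within a label with the share of cells a label has. With the label shares of the controls, Wnt11 was at 71.5, 55.2 and 32.2 and stayed below both controls, while Wnt10a moved to 26.4, 24 and 16.9, below both, from a level above both.

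**Figure D1:**
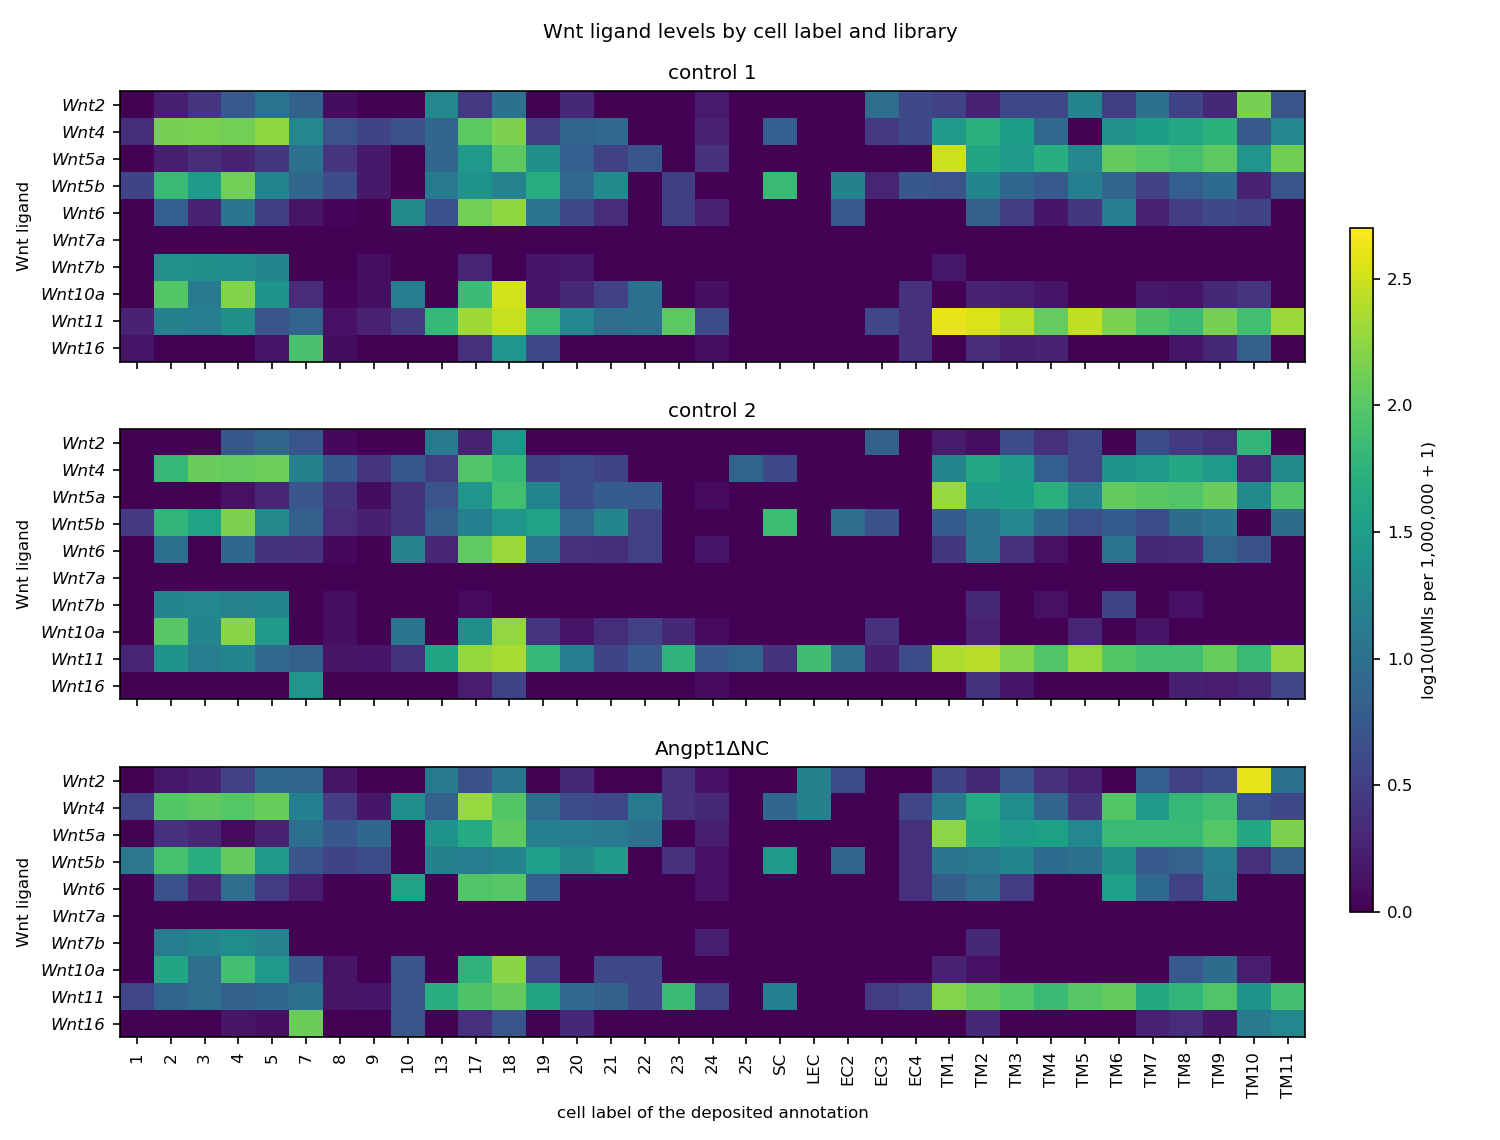
Heat maps of the 10 ligands (vertical axis) in the 35 cell labels (horizontal axis), with 1 panel per library; the colour is log10 of the UMIs per 1,000,000 plus 1. Wnt11 and Wnt5a fill labels TM1 to TM11, Wnt4, Wnt10a, Wnt5b and Wnt7b fill the epithelial labels 2 to 5, Wnt6 stands out in 17 and 18, Wnt2 in TM10 and Wnt16 in label 7, and the row of Wnt7a is empty.

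Wnt11 and Wnt5a were both highest in TM1, which fibroblast and keratocyte markers lead. Both reached 10 CPM in each of the 11 labels TM1 to TM11 in both controls. Wnt11 was highest in TM1, at 406, 236 and 159 CPM, followed by TM2 (363, 265 and 119), label 18 (287, 222 and 111) and TM5 (285, 193 and 97.5). These 4 overlapped between neighbours in the 2 controls, so that their order is not fixed. At depth, 90.6%, 87.8% and 63.5% of the TM1 cells had a Wnt11 UMI. Wnt5a in TM1 was at 313, 190 and 167 CPM, where the controls lay above those of the next label, TM9 (106, 121 and 96.3). TM6, TM11 and TM7 held Wnt5a at 112, 110 and 65.5, at 129, 90.8 and 145 and at 96.3, 101 and 64.8 CPM, and overlapped with TM9. Across labels, the 2 ligands had a correlation of 0.83 (Pearson's r of log2 levels, 34 labels of the summed controls, which share libraries and depth), the highest among the pairs of members.

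Wnt4, Wnt5b and Wnt7b were highest in surface epithelial labels, where Wnt10a was present as well. Wnt4 was at 176, 125 and 118 CPM in the corneal epithelium (label 5), at 143, 120 and 107 in label 3 and at 132, 115 and 97.4 in label 4, and the controls of these labels overlapped with each other and with those of label 18 (145, 63.3 and 93.7). Wnt5b was highest in the limbal label 4, at 132, 148 and 111 CPM, apart from every other label in the controls. Wnt10a in label 4 was at 155, 167 and 76.7 CPM and in the dividing cells of label 2 at 93.6, 99.8 and 38.1, each apart from the next in the controls, and in label 5 it was at 23.9, 30.1 and 27.8. Wnt7b was found nearly only in these labels, at 14.9 to 22.4 CPM in the controls in labels 2 to 5 and at 2.56 or less in every other label of any library. Its levels are low: with each cell thinned to 2000 UMIs, 0% to 4.88% of the cells of labels 2 to 5 had a UMI.

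Wnt6 and the neighbouring gene Wnt10a were both highest in label 18. Wnt6 was there at 178, 196 and 98.7 CPM, in label 17 at 133, 108 and 91.4 and in the astrocyte label 10 at 18.6, 15.1 and 36.0, each apart from the next in the controls. Wnt10a in label 18 was at 325, 181 and 163 CPM, and in label 17 at 69.9, 21.3 and 55.6, where the controls differed more from each other than from Angpt1ΔNC. Label 18 had the highest sum of all members, 1090, 790 and 603 CPM, of which Wnt10a gave 28.0% of the control UMIs. Within label 18 and at 2000 UMIs per cell, Wnt10a was found in 48.2%, 48.6% and 36.4% of the cells with a Wnt6 UMI and in 38.9%, 18% and 24.7% of those without, so that the share was higher among Wnt6 cells in all 3 libraries. The cells with a Wnt6 UMI numbered 83, 37 and 66. This was not particular to the neighbouring pair. Wnt10a was also found in a higher share of Wnt5a cells (53.8%, 38.5% and 28.6%) than of the others (38.8%, 22.6% and 25.8%). The same held for Wnt4 cells (45.3%, 37.5% and 28.8%, against 40.7%, 23.8% and 25.8%). Wnt11 in control 1 went the other way, in 34.4% of Wnt10a cells and 42.4% of the others.

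Wnt2 and Wnt16 were each highest in a single label. Wnt2, a ligand known from lung mesenchyme and vessels, was at 140, 58.7 and 407 CPM in TM10, apart from label 18 (9.26, 24.8 and 9.90) and label 13 (17.3, 11.7 and 11.3). Wnt16 was highest in the ciliary epithelium (label 7), at 83.6, 25.4 and 123 CPM, from 316, 107 and 139 cells. It was found in 27.8% (95% exact binomial interval 23% to 33.1%), 13.1% (7.34% to 21%) and 48.9% (40.4% to 57.5%) of these cells. Over all called cells, including those without a deposited label, Wnt16 was at 6.04, 1.98 and 8.66 CPM, against 3.75, 0.448 and 3.93 in kept cells.

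In the endothelial labels with at least 15 cells in each library (SC, EC2, EC3 and EC4), no ligand exceeded 14.5 CPM, apart from Wnt5b in the SC label, which the study names Schlemm's canal. The Schlemm's canal list sums Prox1, Ccl21a, Tek and Plvap, and the study reports Plvap as high in EC3. This sum did not single out the SC label. The general endothelial list led in SC at 26.4 times its level elsewhere, with the Schlemm's canal list second at 12.6 times. The latter led in EC3 at 94.7 times and in EC4 at 33.9 times. The study named the SC cells from low Prox1 without Lyve1 and Pdpn and from their scarcity in Angpt1ΔNC, which the sum does not test. In the SC label Wnt5b was at 67.1, 72.1 and 27.3 CPM and was found in 23 of 46, 26 of 63 and 4 of 15 cells, shares of 50% (34.9% to 65.1%), 41.3% (29.0% to 54.4%) and 26.7% (7.79% to 55.1%). In EC3 it was at 0.911, 3.64 and 0 CPM. With 15 cells in Angpt1ΔNC the SC label was not tested, and the intervals of the levels overlapped between genotypes (47.3 to 92.5 in control 1 against 7.43 to 69.8 in Angpt1ΔNC). Smooth muscle (label 19) held Wnt5b at 46.3, 35.9 and 32.6 CPM and Wnt11 at 71.3, 62.9 and 38.0.

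Free RNA in the droplets was read from white blood cells, labels 22 to 25 together. Outside Wnt11, members were found there in at most 1.08% of cells per library, at median depths of 6008, 5873 and 6226 UMIs. Wnt11 was found in 4.25%, 4.43% and 5.38% of these cells, and nearly all of it came from label 23, the dendritic cells. There it was at 103, 55.7 and 65.1 CPM, in 31.4%, 16.9% and 31.4% of cells at 1.67 to 2.21 UMIs per positive cell, and made up 97.1% of that label's member UMIs in the controls. Macrophages (label 24) of similar depth held Wnt11 in 1.55%, 2.73% and 1.75% of cells, so the share differed between white blood cell labels. All 4 dendritic markers were present in label 23, and the fibroblast list summed to 71.0, 57.8 and 66.5 CPM there against 73116, 81032 and 70192 in TM1.

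Genotype differences were tested label by label, on UMIs summed per library in the 32 labels with at least 20 kept cells in each library, with edgeR's quasi-likelihood test over all genes and Benjamini-Hochberg adjustment within the label. The 2 controls against 1 Angpt1ΔNC library leave 1 residual degree of freedom, the lone library is assumed to vary like the controls, and the spread is shared among genes. Of 115 combinations of a member and a label that passed the filter on low counts, 16 had an adjusted p under 0.05, 7 higher and 9 lower in Angpt1ΔNC. Of the 7 higher, 3 (Wnt5a in label 9, Wnt10a in TM9 and Wnt16 in TM10) passed that filter only through the Angpt1ΔNC library, so that they had to differ, and neither the count nor the balance of directions should be read with them. Over all genes and labels, 4.69% of the tests were called (2.37% higher and 2.32% lower). Within single labels the share was 1.04% in TM2, 1.96% in label 18, 2.51% in TM5, 4.68% in TM1, 5.21% in TM7, 7.65% in TM3 and higher in labels 4, 9, TM9 and TM10, given with their members. In 14 of the 16 the fold was larger than the ratio between the 2 controls, 1 had a control at 0, and 3 had a fold under 2.

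**Figure D2:**
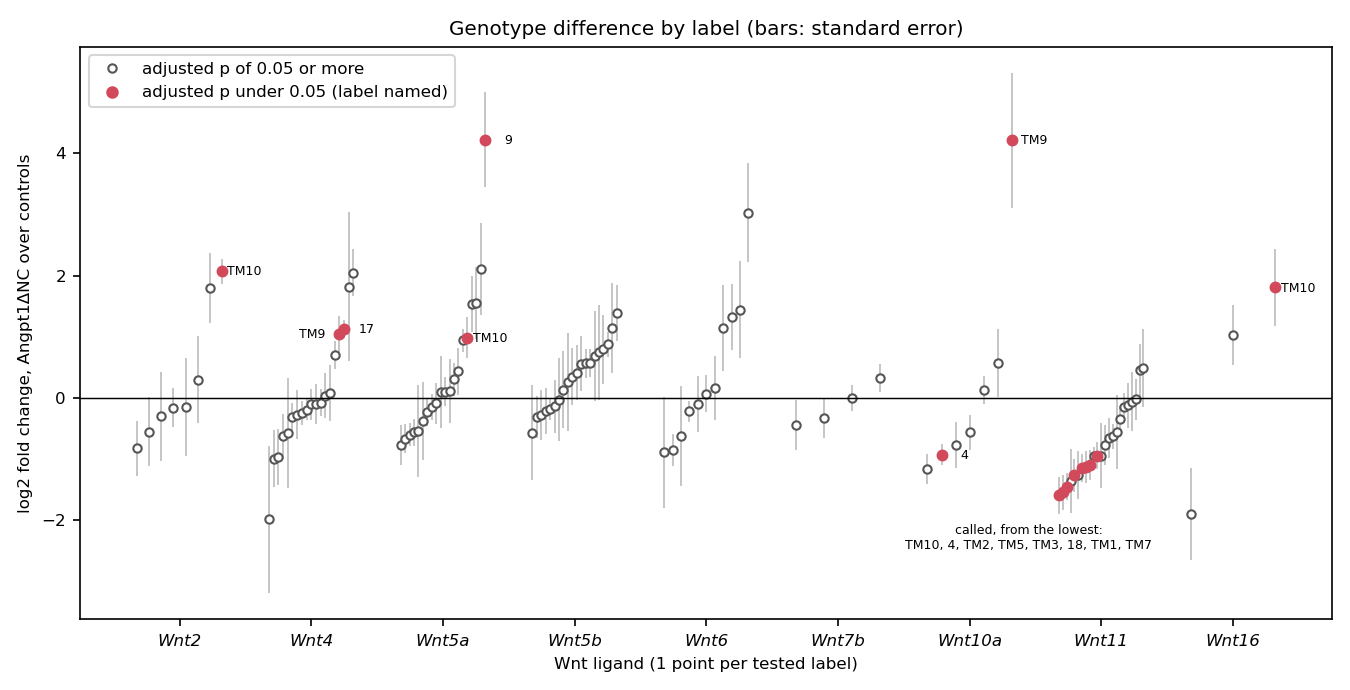
log2 fold change of Angpt1ΔNC over the controls (vertical axis) for each ligand (horizontal axis), 1 point per tested label with its standard error; red points have an adjusted p under 0.05 in edgeR's quasi-likelihood test and carry their label. Wnt11 lies below 0 in 21 of 23 labels, and the red points of Wnt2, Wnt4, Wnt5a and Wnt16 lie above 0.

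Wnt11 was lower in Angpt1ΔNC in 8 of the 23 labels tested and higher in none. In TM2 it was at 363, 265 and 119 CPM, a log2 fold change of -1.45 (SE 0.22, adjusted p = 0.033). In TM5 it was at 285, 193 and 97.5 (log2 fold change -1.26, SE 0.27, adjusted p = 0.00038), and in TM3 at 269, 162 and 95.6 (-1.15, SE 0.22, adjusted p = 2.38e-05). In each of these labels the Angpt1ΔNC value lay below both controls, and the controls were themselves apart by their counting intervals.

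In TM10 Wnt11 was at 74.5, 67.0 and 22.7 CPM (log2 fold change -1.59, SE 0.30, adjusted p = 6.59e-06), in TM7 at 89.4, 76.9 and 42.9 (-0.94, SE 0.22, adjusted p = 0.042) and in TM1 at 406, 236 and 159 (-1.09, SE 0.24, adjusted p = 0.00057). Outside the TM labels it was lower in label 18, at 287, 222 and 111 (-1.13, SE 0.26, adjusted p = 0.027), and in the limbal epithelium of label 4, at 21.1, 16.3 and 5.76 (-1.54, SE 0.28, adjusted p = 1.95e-06). Label 17, at 204, 184 and 88.6 CPM, missed the threshold (-0.95, SE 0.16, adjusted p = 0.056).

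Over the TM labels, Wnt11 was called lower in 6 of 11, where 2.82% of all tests in these labels were called lower. It lay below both controls in 10 of 11, where 32.1% (TM1) to 51.1% (TM8) of all genes did so within a label. Its median log2 fold change was -1.09, 2.13-fold lower, beside a median of -0.01 over all 94337 tests in the same labels. The exception was TM6, at 143, 94.9 and 111 CPM. The size of the change depended on the control: without control 1 the called log2 fold changes of TM1 and TM3 were -0.69 and -0.79, and without control 2 they were -1.40 and -1.45. Among male-typed cells alone, Wnt11 kept its call in TM2 (-1.22), TM5 (-1.37) and TM10 (-2.20) and lost it in label 4 (-1.11, adjusted p = 0.059), label 18 (-1.40, adjusted p = 0.13), TM1 (-0.95, adjusted p = 0.10), TM3 (-0.64, adjusted p = 0.26) and TM7 (-0.80, adjusted p = 0.32), all edgeR with Benjamini-Hochberg adjustment. Over all 8 alternatives the call was kept under 6 in TM2, TM3, TM5 and TM10, under 5 in label 4, under 4 in label 18 and under 3 in TM1 and TM7. It was lost without a filter in labels 4 and 18, TM1 and TM7 and with thinned cells in TM1, TM5, TM7 and TM10. With DESeq2, 7 of the 8 calls were lost and TM2 kept its call, which was lost with RLE size factors and with equal numbers of cells (adjusted p up to 0.42). The part of sex in these differences was not tested beyond this.

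**Figure D3:**
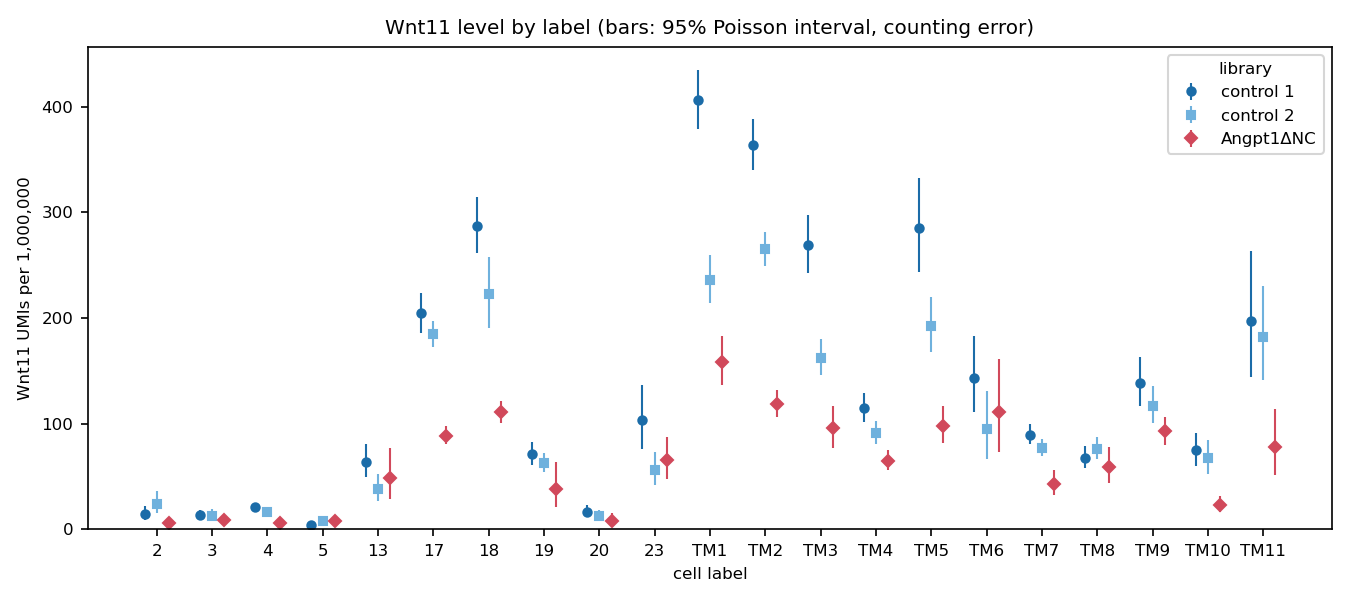
Wnt11 level in UMIs per 1,000,000 (vertical axis) in the labels named on the horizontal axis, with 1 point per library and 95% Poisson intervals that cover counting error only. The Angpt1ΔNC point lies below both controls in every TM label except TM6, and in labels 4, 17 and 18. In these labels, 32.1% (TM1) to 51.6% (label 17) of all genes lay below both controls.

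Some marker values lay outside the controls in all 8 of these labels, as was common among all genes. Of all genes, 33.5% lay below and 33.8% above both controls in TM5, and 42.7% and 40.6% in TM7. The 4 TM markers other than the deleted Angpt1 summed in TM10 to 962, 1022 and 402 CPM (Myoc 745, 869 and 370), in TM7 to 3271, 4294 and 1121, in TM5 to 3858, 4774 and 1620, in TM3 to 2224, 2828 and 1377 and in TM2 to 2883, 4021 and 2291, below both controls in each. In TM1 they summed to 70.9, 128 and 114, between the controls, and in labels 4 and 18 to no more than 62.9. The fibroblast list summed above both controls in TM10 (21529, 22403 and 25220) and TM7 (11868, 12798 and 18594). It did so in TM3 (20364, 19400 and 27950) and TM2 (23998, 24676 and 28615) as well, while in TM1 it summed below both. Within the list, Dcn, Col1a1 and Clec3b were above both controls in TM10, Pdgfra and Lum below both and Cd34 between them. The stromal gene Lum was below both controls in TM1 (6976, 7318 and 4991) and label 18 (3250, 3162 and 1825). Dcn, also stromal, was above both in TM1 (38209, 44097 and 44962). In label 18 Col1a1 was below both as well, while Dcn, Pdgfra, Clec3b and Cd34 lay between the controls. The epithelial keratin Krt5 was above both in TM7 (9.96, 5.75 and 42.1). In label 18 the endothelial marker Cldn5 was at 318, 195 and 667 CPM, while Cdh5, Pecam1 and Kdr were at 6.17 or less in every library. In label 4 the 5 keratocyte markers summed to 968, 695 and 494, but they include Aldh3a1, which the corneal epithelium list also holds. Of the stromal genes among them, Dcn was above both controls there (24.3, 25.2 and 29.8) and Lum between them (2.36, 7.21 and 5.26). The 5 corneal endothelial markers in TM2 summed to 1490, 2276 and 1780, so that Angpt1ΔNC lay between the controls. The part of these shifts in the Wnt11 differences was not tested.

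Wnt10a was lower in the limbal epithelium. In label 4 it was at 155, 167 and 76.7 CPM from 917, 1086 and 772 UMIs, a log2 fold change of -0.92 (SE 0.18, adjusted p = 5.79e-06), with the controls close together and Angpt1ΔNC well below both. The call held under 7 of 8 alternatives, including male-typed cells (-0.95, adjusted p = 0.0026), and was lost without a filter on low counts (adjusted p = 0.39). In label 4, 12.5% of all genes were called, and 6.05% of all genes were called lower. The surface epithelial markers there summed to 16902, 16760 and 15401 CPM. In the dividing cells of label 2, Wnt10a was at 93.6, 99.8 and 38.1 CPM (log2 fold change -1.16, SE 0.25) and missed the threshold (adjusted p = 0.062), and in labels 5, 17 and 18 it was not called either. The other ligands of label 4 that passed the filter, Wnt2, Wnt4, Wnt5b, Wnt6 and Wnt7b, had log2 fold changes between -0.82 and 0.33 and no call.

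Wnt2 was higher in TM10, the Cd34-bearing label. It was at 140, 58.7 and 407 CPM from 177, 64 and 626 UMIs, a log2 fold change of 2.07 (SE 0.21, adjusted p = 2.99e-21). It was found in 30.4% (24% to 37.4%), 15.6% (10.4% to 22%) and 71.3% (64.2% to 77.6%) of 194, 167 and 188 cells. At 2000 UMIs per cell these shares were 19.1%, 5.73% and 42.2%. Angpt1ΔNC lay above both controls, which themselves differed 2.39-fold, and the log2 fold change was 2.77 without control 1 and 1.63 without control 2. The call was kept under 7 of 8 alternatives, male-typed cells included (2.23), and lost under DESeq2 (adjusted p = 0.40). Other markers also lay outside the controls in TM10: Chil1 at 208, 140 and 18.2 CPM, Clec3b at 1379, 1317 and 2364 and the endothelial gene Kdr at 7.14, 4.59 and 33.8, while Cdh5, Pecam1 and Cldn5 were at 3.67 or less in every library. Of all genes in TM10, 40.9% lay below and 35.0% above both controls. The part of these markers in the Wnt2 difference was not tested. TM10 alone held 76.4% of the Wnt2 UMIs of the Angpt1ΔNC library, against 36.0% and 24.9% in the controls.

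The other members tested in TM10 were called as well: Wnt5a at 24.6, 18.4 and 41.6 CPM (log2 fold change 0.99, SE 0.33, adjusted p = 0.028) and Wnt16 from 7, 1 and 18 UMIs (1.81, SE 0.64, adjusted p = 0.039), beside the lower Wnt11. In TM10, 13% of all genes were called, a share against which the 4 of 4 members are to be read. Wnt5a lost its call under 5 of 8 alternatives (adjusted p up to 0.999, DESeq2) and Wnt16 under 4 of 6 (up to 0.18, no filter on low counts), and the controls of Wnt16 differed 6.05-fold, more than the genotypes. Without control 1 and control 2 the log2 fold change of Wnt16 was 3.53 and 1.16.

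In single TM10 cells, Wnt11 was less often found with Wnt2 than without it in the controls, but not in Angpt1ΔNC. At 2000 UMIs per cell, Wnt11 was found in 0 of 34 and 0 of 9 control cells with a Wnt2 UMI, against 16.7% and 16.2% of the cells without. In Angpt1ΔNC it was found in 6 of 78 Wnt2 cells (7.69%) and in 5.61% of the others. These zeros allow shares of up to 8.82% and 33.3%, so that only in control 1 does the limit lie below the share of the other cells. In TM1, where Wnt5a and Wnt11 are both highest, Wnt11 was found in 58.1%, 38.6% and 36.7% of Wnt5a cells and in 58.0%, 31.7% and 27.5% of the others, close to each other in control 1.

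**Figure D4:**
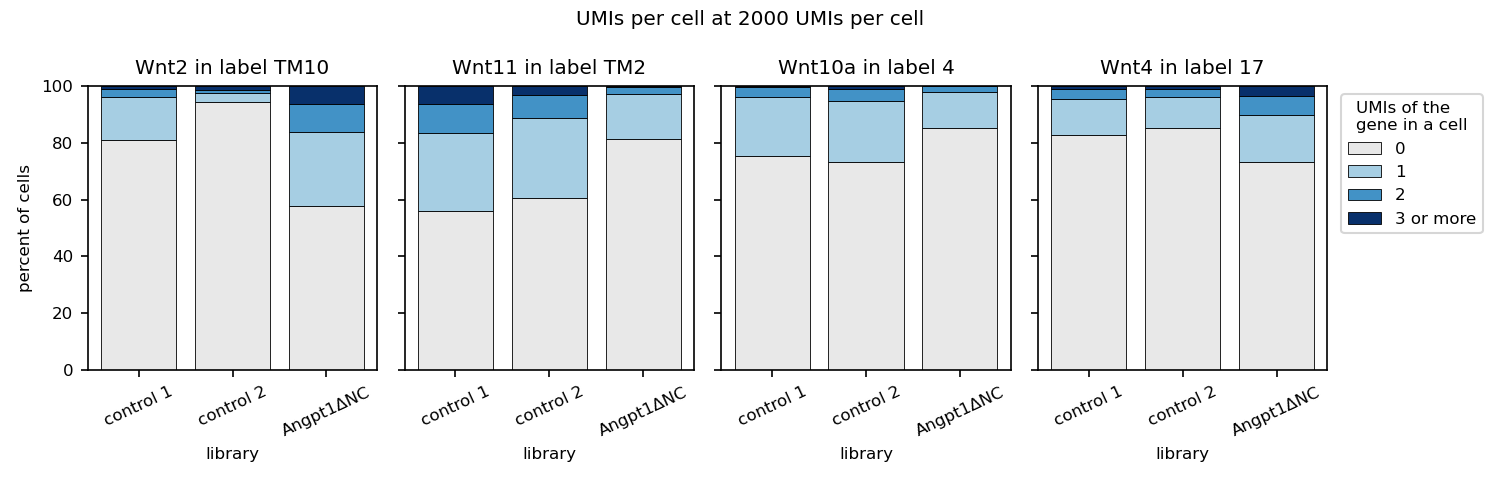
Percent of cells (vertical axis) with 0, 1, 2 or 3 or more UMIs of a ligand in each library (horizontal axis), after thinning each cell to 2000 UMIs. The share of cells with no Wnt2 UMI in TM10 was 80.9%, 94.3% and 57.8%, that with no Wnt11 UMI in TM2 55.9%, 60.6% and 81.4%, that with no Wnt10a UMI in label 4 75.2%, 73.1% and 85.1%, and that with no Wnt4 UMI in label 17 82.6%, 85.4% and 73.3%.

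Wnt4 was higher in 2 labels. In label 17 it was at 103, 92.3 and 189 CPM from 230, 434 and 877 UMIs (log2 fold change 1.13, SE 0.15, adjusted p = 0.037), with 1.19% of all genes called in that label. The controls lay close together and Angpt1ΔNC above both. The call was lost under 4 of 8 alternatives, among them male-typed cells, where the log2 fold change was 0.31 (adjusted p = 0.48). The smooth muscle markers in label 17 summed to 4651, 2532 and 1807 CPM and the 4 TM markers other than Angpt1 to 188, 556 and 120, and their part was not tested. In TM9 Wnt4 was at 52.7, 27.9 and 74.5 CPM (1.05, SE 0.30, adjusted p = 0.045), with a log2 fold change of 1.51 without control 1 and 0.62 without control 2, and it was lost under 5 of 8 alternatives. In the epithelial labels 3, 4 and 5, where Wnt4 was highest, its log2 fold changes were -0.32 (SE 0.23), -0.19 (SE 0.17) and -0.25 (SE 0.20), with no call.

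The 2 largest fold changes rested on few molecules, so that their fitted size depends on the prior count, and both genes passed the filter on low counts only through Angpt1ΔNC, as Wnt16 did in TM10. Wnt5a in label 9 had 2, 1 and 15 UMIs in 2, 1 and 13 cells of 711, 799 and 292 (log2 fold change 4.22, SE 0.77, adjusted p = 2.11e-06). In that label 12.7% of all genes were called, the fibroblast markers summed to 46.5, 67.6 and 65.0 CPM and the 4 melanocyte markers to 31581, 35591 and 41720. Wnt10a in TM9 had 1, 0 and 17 UMIs (log2 fold change 4.21, SE 1.10, adjusted p = 0.028), the 17 in 8 cells, and 9.2% of all genes were called there. Its log2 fold change was 6.93 without control 1 and 3.06 without control 2. In TM9 the endothelial marker Cldn5 was at 0.976, 1.95 and 171 CPM, while Cdh5, Pecam1 and Kdr were at 1.95 or less in every library. The 4 TM markers other than Angpt1 summed to 130, 241 and 8.07 CPM in TM9. In label 18, where Wnt10a is highest, Cldn5 was at 318, 195 and 667, with Cdh5, Pecam1 and Kdr at 6.17 or less. The part of these shifts was not tested.

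**Figure D5:**
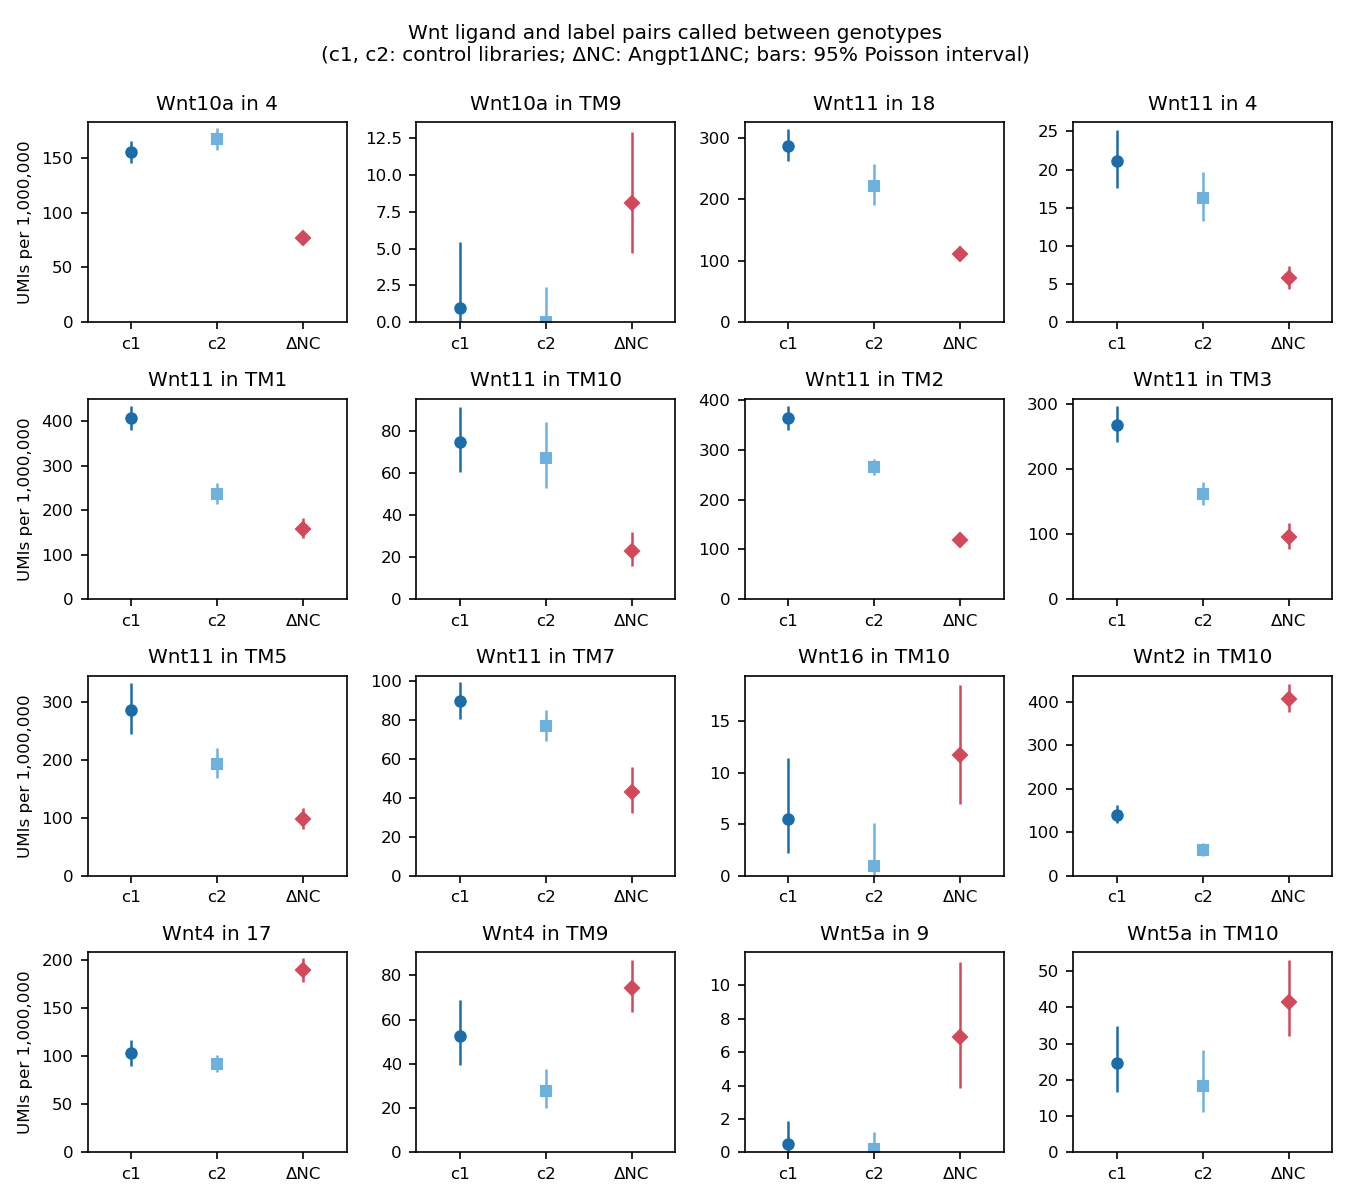
The 16 combinations of a ligand and a label called between genotypes, each with its level in UMIs per 1,000,000 (vertical axis, from 0) in the 2 controls and Angpt1ΔNC (horizontal axis); bars are 95% Poisson intervals of counting error. Angpt1ΔNC lies outside the control range in all 16, below it for Wnt10a in label 4 and the 8 Wnt11 panels, and above it in the other 7.

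Wnt5b, Wnt6 and Wnt7b had no call. Wnt5b was tested in 20 labels with log2 fold changes from -0.57 to 1.39, and in label 4 it was at 132, 148 and 111 CPM (-0.19, SE 0.17). Wnt6 was tested in 11 labels, from -0.89 to 3.03, the latter in TM7 from 3, 5 and 10 UMIs (SE 0.80, adjusted p = 0.066), and in label 18 it was at 178, 196 and 98.7 CPM (-0.85, SE 0.26, adjusted p = 0.12). Wnt7b was tested in the 4 epithelial labels, from -0.44 to 0.33. In the ciliary epithelium Wnt16 was at 83.6, 25.4 and 123 CPM, and the log2 fold change of 1.03 (SE 0.49, adjusted p = 0.44) was smaller than the difference between the controls. Of Wnt5a in TM1, at 313, 190 and 167 CPM, the log2 fold change was -0.66 (SE 0.24, adjusted p = 0.095).

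The genes whose levels followed each ligand most closely over the labels differed by ligand. With Pearson's r of log2 (level + 1) over 34 labels of the summed controls and 12854 genes, Wnt5a went with Cdh11, a cadherin of mesenchymal cells (0.94), Mrc2, a collagen uptake receptor (0.92), and Pdgfra, a growth factor receptor of fibroblasts (0.92). Wnt11 went with the pyrophosphate transporter Ank (0.89), the calcium channel Cacna1g (0.88) and the prostaglandin synthase Ptgs2 (0.88). Wnt7b went with the epithelial genes Dsg3 (0.98), a cadherin of desmosomes, and Ovol1 (0.98).

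Wnt4 went with the epithelial transcription factor Klf5 (0.81), Nipal1 (0.81) and Tns4 (0.77), and Wnt10a with Sowahb (0.80), Tns4 (0.79) and 5730559C18Rik (0.79). Wnt5b went with Lmo7 (0.79), the transcription factor Snai2 (0.76) and Phldb2 (0.74), and Wnt6 with B3gat2 (0.85), Cnksr2 (0.81) and Tenm1 (0.79). Wnt2 went with the protease Htra3 (0.77), the noradrenaline transporter Slc6a2 (0.69) and Hmcn2 (0.68), and Wnt16 with the protease Adamts16 (0.84), Cadps (0.80) and Magee2 (0.79). Labels share libraries and depth, so no p is given. Among the other pairs of members, after the 0.83 of Wnt5a and Wnt11, r was 0.67 for Wnt6 and Wnt10a, 0.65 for Wnt7b and Wnt10a and -0.23 for Wnt5a and Wnt7b.

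The rest of the pathway was read from a list of 46 genes, of which 38 were tested in at least 1 label. Of 570 tests, 18 were called higher and 17 lower in Angpt1ΔNC, in 17 genes, beside 4.69% of tests called over all genes and labels. Of these 35 calls, 24 in 13 genes fell in the 25 labels where a member reached 10 CPM in both controls. Of the labels named here and not above, 6.09% of all genes were called in label 13, 1.19% in label 19, 6.62% in TM4 and 3.28% in TM8. By group the calls were 2 higher of 12 tests for the other Wnt ligands, none of 48 for the secretion genes, 5 higher and 8 lower of 330 for receptors, 2 higher and 6 lower of 80 for the R-spondin axis and 9 higher and 3 lower of 100 for targets and feedback genes.

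Of the genes that a ligand-making cell needs, Wls was present in most labels and was called in none of 30. Among labels where a member reached 10 CPM in both controls, it was highest in smooth muscle (203, 206 and 130 CPM). In label 1, where no member did, it was at 228, 187 and 122. Porcn was at 12.2, 16.9 and 17.1 CPM in its highest label, the ciliary epithelium. Among the other ligands, Wnt9a was higher in TM10, at 17.4, 8.26 and 48.1 CPM (log2 fold change 1.92, SE 0.35, adjusted p = 2.56e-06), beside the higher Wnt2. Wnt1 itself, whose promoter drives the Cre, had 6, 8 and 6 UMIs.

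R-spondins, which strengthen Wnt signals through the receptors Lgr4 to Lgr6, were called in 5 TM labels. Rspo3 was lower in TM3 (26.8, 32.8 and 6.10 CPM, log2 fold change -2.28, SE 0.49, adjusted p = 0.00017), TM4, TM8 and TM9. It was highest in label 17, at 68.1, 74.7 and 34.3, with no call. Rspo2 was higher in TM4 (9.36, 10.1 and 20.6) and Rspo1 in TM10 (11.1, 0.918 and 40.9), where the controls differed 12.1-fold. Lgr4 was lower in label 4 (10.8, 13 and 5.66), together with Lef1, a partner of beta-catenin at target genes (6, 21 and 4 UMIs).

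Among receptors, Reck, a protein known to present Wnt7 ligands to Frizzled, was lower in TM2, in TM3 (63.4, 62.4 and 11.2 CPM, log2 fold change -2.47, SE 0.36, adjusted p = 1.6e-09) and in TM4 (160, 152 and 84.4), labels with at most 1.01 CPM of Wnt7b in the controls. Fzd4 was lower in TM7 (91.7, 86.4 and 43.7), TM8 (60.6, 53.7 and 21.7) and TM10 (21.4, 20.2 and 5.85). Fzd1, a Frizzled receptor, was highest in TM4 (144, 156 and 126) and Lrp6 in TM7 (171, 178 and 146), without a call there. Lrp6 was higher in label 13 (74.9, 79.8 and 130) and label 19 (65.4, 73.7 and 149), Lrp5 lower in TM9 and Ryk, a receptor for Wnt5a, higher in TM10 (112, 50.5 and 135). The controls of Ryk there differed 2.21-fold, more than the genotypes (1.71-fold). The feedback gene Nkd2 was higher in label 13, TM4 (89.6, 94.7 and 173) and TM7, and its relative Nkd1 in label 13 and TM10. Nkd2 was highest in TM2, at 279, 251 and 325 CPM, without a call there. Notum, which removes the lipid from Wnt proteins, was highest in label 18, at 105, 14.9 and 104 CPM, where the controls differed from each other as they did for Wnt10a in label 17. All of these calls are edgeR's, adjusted by Benjamini-Hochberg within the label.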

How the data were processed

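Single cells of dissected angle and limbal tissue were captured on the 10x Chromium platform as 3 libraries, each a pool of animals. The authors made the deposited UMI counts with Cell Ranger (version 2.1.1 in the submitters' processing notes, while the matrix headers name version 3.0.2) against mm10, and deposited cluster labels from Seurat 3.1.3. A deposited table of 3467 integrated genes on a natural log scale, made by the authors, was not used for levels. Kept cells are those with a deposited label, so the authors' removal of doublets and low-quality cells was taken over, and no doublet caller was run.

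UMIs were summed by label and library and given per 1000000 with exact Poisson intervals, shares of cells with exact Clopper-Pearson intervals, all at 95% and covering counting error only. A count of 0 allows 3 counts. For shares across depths, cells were thinned to 2000 UMIs. Summed counts were tested with edgeR 4.0.16 (R 4.3.3; TMM factors, filterByExpr, quasi-likelihood F-test) in 32 labels with 20 or more cells in every library, with Benjamini-Hochberg adjustment over all genes of a label and a threshold of 0.05. Differences of genotype differences between labels were fitted with the library as a block. On simulated data with 200 genes changed 4-fold, 81.5% to 99% were recovered per label, with 1369 to 11446 genes tested, and 0% to 8.70% of calls were false. The simulation gave every gene the same fixed dispersion, held no other difference between pools and changed only genes above a minimum expected count. These rates hold for that setting and do not measure how reliable the calls in these data are. Intervals, sums and correlations used Python 3.11.15 with scipy 1.17.1.

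Alternatives were RLE size factors, no filter, DESeq2 1.42.0, equal numbers of cells, thinned cells, male-typed cells (a UMI of a Y-linked gene and none of Xist), adjustment over all labels and each control left out; the quasi-likelihood method of edgeR version 3 was added after seeing the data. All members are named, in full where they are highest or called. Also named are the 3 genes closest to each member in pattern (1 of them is not reported here) and, from the pathway list, genes called where a member reaches 10 CPM and the highest genes of each group. The members and lists were chosen with earlier results of these data known.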

Additional observations from a re-analysis of the deposited data

Results flagged for a closer look

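The genotype difference of a ligand was compared between pairs of labels in which it moved in opposite directions. The 52 pairs were chosen for that difference, so the 17 values below, which passed edgeR's quasi-likelihood test with the library as a block, are a description and no independent test. Of the 17, 8 rest on Wnt5a in label 9 or Wnt10a in TM9, which passed the filter on low counts only through the library where they are high. Values are the log2 fold change in the label named first minus that in the second.

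For Wnt2, the difference was 2.94 for TM10 against label 4 and 2.43 for TM10 against label 13. For Wnt4 it was 1.29 for label 17 against 4, 2.08 for 17 against 8 and 1.71 for TM9 against TM3, while TM1, TM3 and TM7 against 17 gave -2.14, -1.76 and -1.26. For Wnt10a, TM9 against labels 4 and 18 gave 5.30 and 4.71, from the 17 UMIs of TM9.

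For Wnt5a, labels 19, TM1, TM4, TM7, TM8 and TM9 against 9 gave -4.68, -4.86, -4.75, -4.90, -4.51 and -4.30, which the 2, 1 and 15 UMIs of label 9 fix. TM10 against TM7 gave 1.56.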

How the results depend on the processing

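No paired analysis was possible because the genotypes share fewer than 2 replicate numbers, with a single Angpt1ΔNC library. The 16 member calls (7 higher, 9 lower) became 6 (2 and 4) without a filter on low counts, 4 (1 and 3) with DESeq2, 10 (4 higher) with equal numbers of cells and 10 (3 higher) with cells thinned to 2000 UMIs, and 17, 11 and 16 with RLE size factors, male-typed cells and adjustment over all labels. The cause was not tested, except that thinned and equal cells hold fewer UMIs. No call changed direction under any alternative run. The calls kept were 14 of 16 with RLE size factors and with the version 3 method, 13 with adjustment over all labels, 8 in male-typed cells and 3 with DESeq2. Leaving out a control allowed no test, and all 16 fold changes kept their direction. The 35 pathway calls (18 higher, 17 lower) became 2 (0 and 2) with DESeq2, 12 (8 and 4) without a filter, 19 (11 and 8) in male-typed cells and 12 (6 and 6) with thinned cells. Label and member pairs with a UMI in at least 10% of cells fell from 64 to 32 with thinned cells. Of the 27 closest genes, 14 remained with a pseudocount of 10, and 13 to 14 when a control was left out. Depth limits Wnt7b, Wnt16 in TM10, Wnt10a in TM9 and Wnt5a in label 9.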
